A study of Mus musculus with 18 samples.

Results

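The genes of cholesterol synthesis and the targets of SREBP2 were followed through mouse liver. The members were 28 genes taken from a fixed list by their symbol. They are the enzymes from acetyl-CoA to cholesterol, the genes of sterol sensing and of SREBP2 itself, and 4 further targets or transport genes. Of these, 27 had a probe set that names that gene alone, and all 27 passed the signal filter, out of 11018 genes tested. Acat2 had no such probe set and has no value. Each gene is represented by the probe set with the highest mean log2 signal over the 18 arrays. Those of Fdft1 and Hsd17b7 are of the array's x type, and those of Mvd, Ggps1 and Lss of its s type. Probes of both types may also match other transcripts.

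Livers came from offspring of the outbred mouse line DUK, taken at postnatal day 21 or 150. Dams ate isoenergetic diets of 20% protein by weight (control) or 40% (high protein, HP). There were 6 groups of 3 arrays. Control dams had 20% protein in pregnancy and lactation; HP pregnancy dams had 40% in pregnancy and 20% in lactation; HP lactation dams had 20% in pregnancy and 40% in lactation; and each diet was sampled at both days. All mice were kept under 12 h of light and 12 h of dark with free access to feed, and no sampling time, feeding state or sex entered the analysis. Each array carried RNA pooled from several livers. The labels give 3 animals per pool in one place and 4 at day 21 or 3 to 4 at day 150 in another, while 4 to 5 animals of a group went into 3 pools by the design text. Pools of a group may therefore share animals, and the p-values describe the spread between pools, which makes them too small if they do.

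Cholesterol is built from acetyl-CoA through mevalonate, the isoprenoid diphosphates, squalene and lanosterol. When sterols in the endoplasmic reticulum run low, SCAP escorts the precursor of SREBP2 to the Golgi, where it is cut, and the released factor switches on nearly every enzyme of the route. INSIG proteins hold SCAP back when sterols are plentiful. The liver is a main site of this synthesis, and its transcripts are known to follow feeding and the time of day.

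The signal is the array intensity deposited by the authors, on a linear scale. A change is a difference of log2 means, and SE is its standard error in limma. A gene is said to have risen or fallen where its Benjamini-Hochberg adjusted p over all 11018 genes was under 0.05. The median correlation between arrays of a group was 0.976. Hepatocyte markers were present, as the tissue label requires: 8 of 10 had a probe set, all 8 lay above the filter, and the dimmest, Hnf4a, had a mean signal of 10535. In bulk liver, fewer cells of a type and less RNA per cell cannot be told apart. On 2 arrays, control day 21 replicate 2 and HP lactation day 150 replicate 4, Xist had signals of 7343 and 11644, against at most 93 on the others.

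RefSeq promoter windows on GRCm38.p6, 250 bases before to 50 after a start site, were found for 23 of the 28 members, in 30 windows. The windows of the genes that the results turn on are shown here by their 250 bases before the start, 5′ to 3′ on the strand of the gene. They are Lss, Ebp and Rdh11, which differed between groups at day 150, Mylip, which lay on the other side of control from them, and Hmgcs1, the first enzyme with a value and the member whose window holds the letters of a sterol regulatory element. Rdh11 has a further window, which holds no match and is not shown. Capitals mark the motif matches.
Hmgcs1, chr13:119690101-119690350, plus strand: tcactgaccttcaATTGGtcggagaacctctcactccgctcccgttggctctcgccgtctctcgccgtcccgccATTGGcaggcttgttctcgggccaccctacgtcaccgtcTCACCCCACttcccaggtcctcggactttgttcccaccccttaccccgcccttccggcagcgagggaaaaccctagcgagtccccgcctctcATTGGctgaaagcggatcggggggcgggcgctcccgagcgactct
Lss, chr10:76531355-76531604, plus strand: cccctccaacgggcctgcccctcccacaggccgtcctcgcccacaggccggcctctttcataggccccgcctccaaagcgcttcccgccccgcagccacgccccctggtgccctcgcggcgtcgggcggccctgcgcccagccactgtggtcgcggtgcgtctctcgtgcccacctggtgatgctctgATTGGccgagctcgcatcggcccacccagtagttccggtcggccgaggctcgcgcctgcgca
Ebp, chrX:8193513-8193762, minus strand: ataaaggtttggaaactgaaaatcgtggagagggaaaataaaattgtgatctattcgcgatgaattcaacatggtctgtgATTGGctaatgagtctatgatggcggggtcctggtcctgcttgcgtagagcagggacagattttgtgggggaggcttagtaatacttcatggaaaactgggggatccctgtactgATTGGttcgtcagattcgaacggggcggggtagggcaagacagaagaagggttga
Rdh11, chr12:79190962-79191211, minus strand: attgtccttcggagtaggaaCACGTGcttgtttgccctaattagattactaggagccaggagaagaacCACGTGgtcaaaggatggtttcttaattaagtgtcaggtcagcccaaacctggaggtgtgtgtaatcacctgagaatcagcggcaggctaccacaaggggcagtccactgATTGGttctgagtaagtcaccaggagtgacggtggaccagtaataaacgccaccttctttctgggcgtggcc
Mylip, chr13:45389492-45389741, plus strand: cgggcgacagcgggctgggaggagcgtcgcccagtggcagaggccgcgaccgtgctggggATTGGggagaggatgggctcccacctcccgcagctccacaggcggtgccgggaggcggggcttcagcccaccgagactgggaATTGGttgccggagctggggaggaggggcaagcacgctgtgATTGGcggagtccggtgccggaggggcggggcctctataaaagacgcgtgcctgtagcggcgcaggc
The motifs were searched on both strands: TCACNCCAC, a form of the sterol regulatory element bound by SREBP, CACGTG, the E-box, and CCAAT, the box bound by NF-Y, a factor that works beside SREBP. CCAAT stood in the windows of 21 of 23 members (91.3%), against 42.8% of the tested genes with a window. CACGTG stood in 6 of 23 (26.1%), namely Dhcr7, Hsd17b7, Insig1, Rdh11, Sc5d and Scap, against 12.0%. TCACNCCAC stood in 1 of 23, Hmgcs1, where it starts 137 bases before the start site, against 1.42%. In Ebp the capitals are 2 CCAAT boxes read on the other strand, in Rdh11 they are 2 E-boxes and 1 such box, and in Mylip 3 such boxes. A match is a description of letters, not of binding.

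At day 150, long after the diet of the dam had ended, most cholesterol genes lay lower in offspring of HP pregnancy dams than in control. Of the 27 members, 3 fell and 0 rose: Fdps, which makes farnesyl diphosphate, Ebp, the sterol isomerase, and Rdh11, a retinol dehydrogenase and SREBP target. Over all genes tested 1.11% fell and 1.52% rose in this comparison. The members' median log2 change was -0.43, with 21 of 27 below 0, against a median of 0.00 over all genes. In 15 members all 3 HP pregnancy arrays lay below all 3 control arrays, against 12.9% of all genes, and in 2, Lbr and Mylip, they lay above, against 15.1%.

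Fdps had signals of 6335, 4456 and 5001 in control and 2967, 2197 and 2625 after HP pregnancy at day 150. The highest HP pregnancy array lay well under the lowest control array. The control mean was 2.02 times the HP pregnancy mean (log2 change -1.01, SE 0.26, adjusted p = 0.043). Ebp had 12437, 12876 and 12551 in control and 8951, 8785 and 9044 after HP pregnancy. Both groups were tight and did not overlap, and the control mean was 1.41 times the other (log2 change -0.50, SE 0.12, adjusted p = 0.038). Rdh11 had 1305, 1185 and 1277 in control and 749.7, 674.9 and 524.8 after HP pregnancy, again with no overlap (log2 change -0.97, SE 0.23, adjusted p = 0.038). These calls are near the threshold. Without 1 array at a time the count of members called was 0 or 1, the adjusted p of Fdps ran from 0.055 to 0.202, that of Ebp from 0.063 to 0.163 and that of Rdh11 from 0.047 to 0.153. The direction stayed the same in each of these fits. The Gapdh 3'/5' ratio, a measure of RNA and labelling quality, was 1.30, 1.79 and 1.35 on the control arrays and 1.77, 1.67 and 1.80 on the HP pregnancy arrays, with group means of 1.48 and 1.75. With that ratio as a covariate the members' median was -0.38 and 0 members passed in limma. Of all 11018 genes 3 rose and 2 fell in that fit. The part of the ratio in these differences was not tested.

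**Figure D1:**
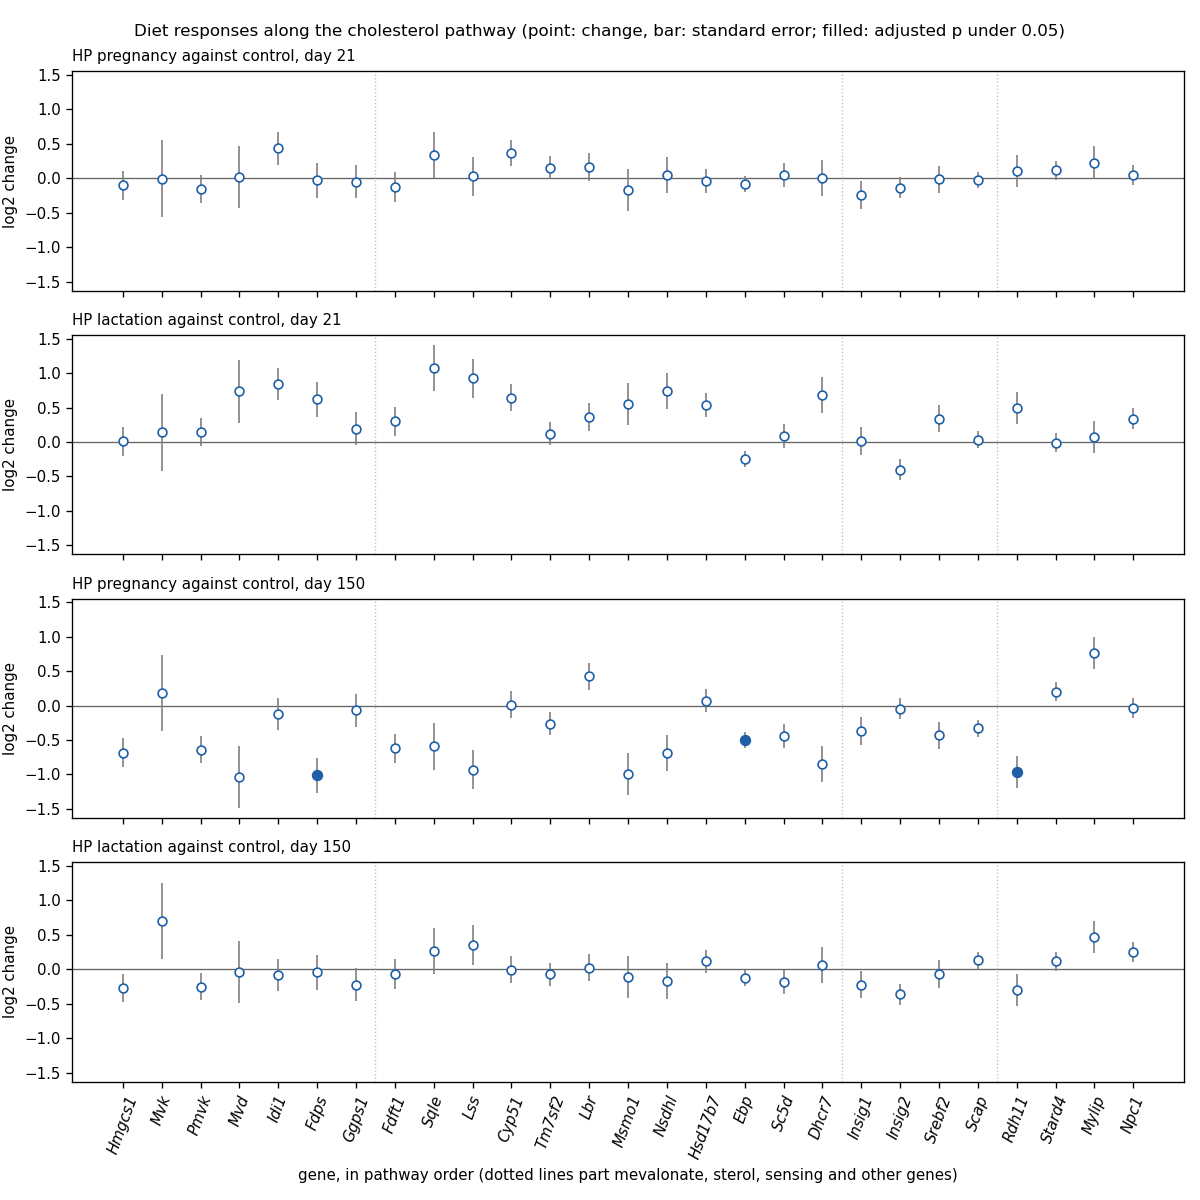
Log2 change of signal (vertical axis) for 27 genes in pathway order (horizontal axis) in the 4 comparisons of an HP group with control of the same day; points are changes, bars standard errors, 3 arrays per group, and filled points have an adjusted p under 0.05. Filled points are found only after HP pregnancy at day 150 (Fdps, Ebp and Rdh11), where 21 of 27 genes lie below 0, while 24 of 27 lie above 0 after HP lactation at day 21.

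Along the mevalonate steps, 6 of 7 genes lay below 0 after HP pregnancy at day 150, with a median of -0.64, and Fdps was the only one past the threshold. Hmgcs1, which makes HMG-CoA, had signals of 23651, 15979 and 23032 in control and 15130.1, 11651 and 11950 after HP pregnancy (log2 change -0.68, SE 0.21, adjusted p = 0.079). The groups did not overlap, although control replicate 2 came close to the highest HP pregnancy array. Pmvk, phosphomevalonate kinase, had a change of -0.64 (SE 0.20, adjusted p = 0.084). Mvd, mevalonate diphosphate decarboxylase, had -1.04 with a wide error (SE 0.45, adjusted p = 0.205). Idi1, the isopentenyl diphosphate isomerase, was near control at -0.12 (95% interval -0.61 to 0.38), as was Ggps1, which leads off to geranylgeranyl diphosphate, at -0.07 (-0.57 to 0.43). Mvk, mevalonate kinase, had scattered control signals of 339.9, 36.2 and 292. It was at 0.18, and at -0.86 without control day 150 replicate 2, the array at 36.2.

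In the squalene and sterol steps 9 of 12 genes had all HP pregnancy arrays below all control arrays, and the median change was -0.55. Lss, which closes the sterol rings, had 1233, 713 and 937.2 in control and 569.5, 468.2 and 443.1 after HP pregnancy (log2 change -0.93, SE 0.28, adjusted p = 0.080). Msmo1, the C4 methyl oxidase, had 10738, 5315 and 8362 in control and 4627, 4012 and 3262 (-0.99, SE 0.30, adjusted p = 0.080). Neither gene overlapped between groups, and neither passed. Dhcr7, which makes the last reduction to cholesterol, was at -0.85 (SE 0.26, adjusted p = 0.086), Nsdhl, a C4 decarboxylase, at -0.69 (SE 0.26, adjusted p = 0.141) and Fdft1, squalene synthase, at -0.62 (SE 0.22, adjusted p = 0.116). Sqle, squalene epoxidase, had 3165, 2175 and 2083 in control and 1732, 1695 and 1423 (-0.59, SE 0.34, adjusted p = 0.342). Sc5d, the sterol C5 desaturase, was at -0.44 and Tm7sf2, a sterol C14 reductase, at -0.26.

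Other sterol enzymes lay near control or above it. Cyp51, the C14 demethylase, had 4813, 4069 and 4590.4 in control and 4687, 4606 and 4288 after HP pregnancy, which overlap closely (log2 change 0.01, 95% interval -0.39 to 0.42). Hsd17b7, a sterol ketoreductase, was at 0.07 (-0.29 to 0.44) on its brightest probe set. Another of its probe sets was at -1.19 (SE 0.29, adjusted p = 0.048 when every kept probe set was tested), so the reading of this gene depends on the probe set. Hmgcs1 also had a further probe set past the threshold in that fit, at -1.53 (SE 0.37, adjusted p = 0.048), in the same direction as its brightest one. Lbr, which holds a C14 reductase domain beside its lamin-binding part, lay higher, with 1742, 1699 and 1335 against 1128, 1152 and 1259 in control (0.42, SE 0.20, adjusted p = 0.242). Over all members, 8 of 27 further probe sets, in 15 genes, had the opposite sign to the one used in this comparison.

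All 4 genes of sterol sensing and of SREBP2 itself lay below 0 and 0 passed. Scap had 3446, 3703 and 3374 in control and 2911, 2415 and 3082 after HP pregnancy (log2 change -0.33, SE 0.12, adjusted p = 0.130), with no overlap. Srebf2, the gene of SREBP2 itself, had 348.2, 247.9 and 253.3 in control and 263.9, 200.3 and 168 (-0.43, SE 0.20, adjusted p = 0.236), and the groups overlapped. Insig1, itself an SREBP target, was at -0.37 (SE 0.20, adjusted p = 0.324), and Insig2 at -0.05 (95% interval -0.36 to 0.27). Of the other targets, Stard4, a sterol carrier, was at 0.20 and Npc1, which moves cholesterol out of lysosomes, at -0.04.

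Mylip lay on the other side of control. It encodes the ubiquitin ligase IDOL, which is induced by LXR when sterols are abundant and marks lipoprotein receptors for breakdown. Its signals were 643, 896.8 and 800.6 in control and 1011, 1772 and 1255 after HP pregnancy at day 150. All HP pregnancy arrays lay above all control arrays (log2 change 0.76, SE 0.24, adjusted p = 0.084). Of 5 other LXR and efflux genes tested 0 passed, with a median of -0.02 and a range of -0.38 to 0.37.

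**Figure D2:**
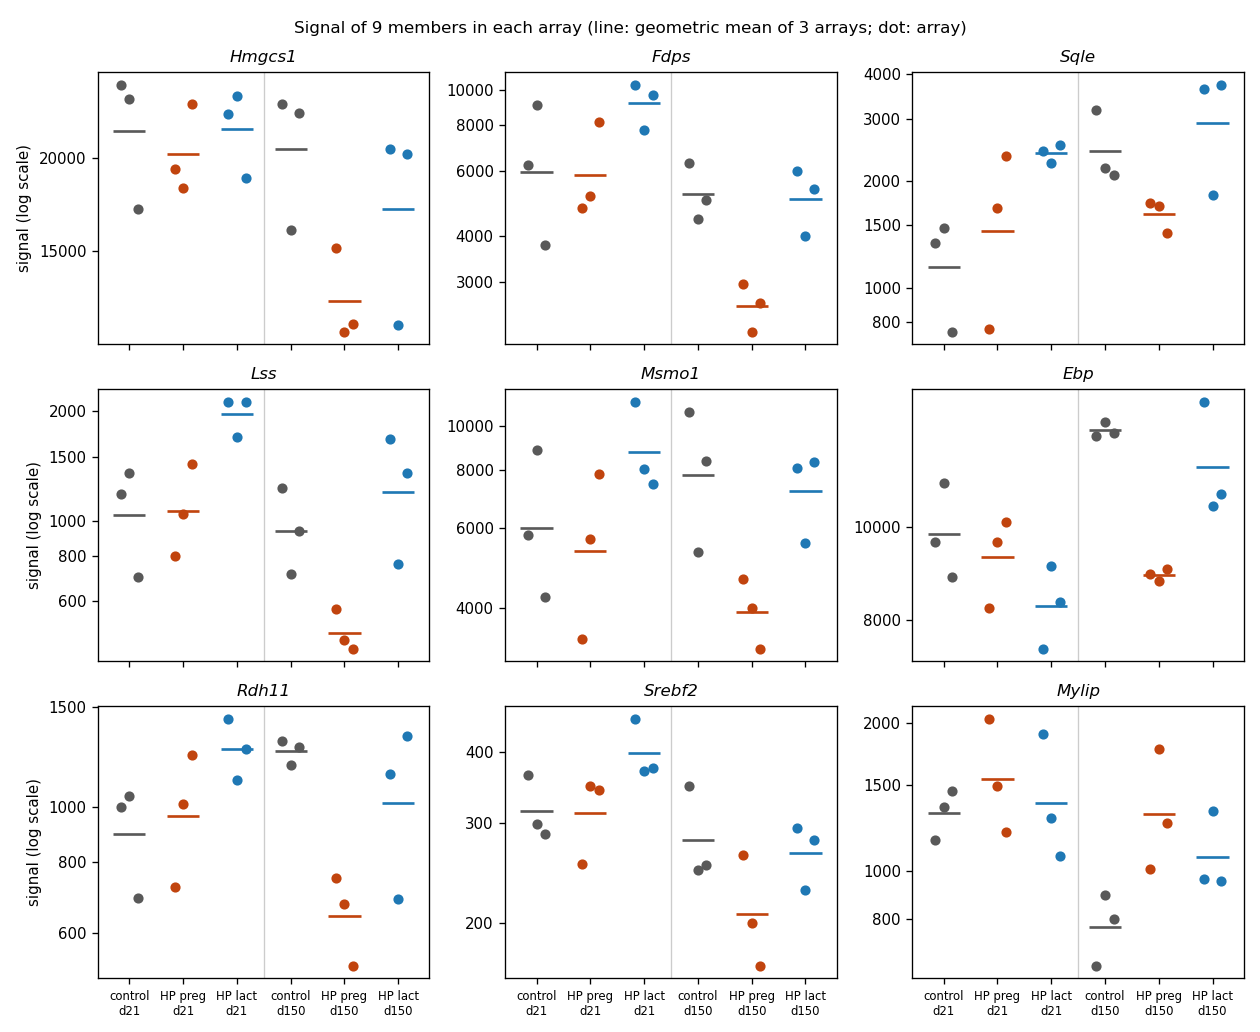
Array signal on a log scale (vertical axis) of 9 genes in the 6 groups (horizontal axis); each dot is 1 array and each line the geometric mean of 3 arrays, with day 21 left and day 150 right. At day 150 the HP pregnancy dots of Fdps, Lss, Msmo1, Ebp and Rdh11 lie below all control dots and those of Mylip above them.

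The HP pregnancy and HP lactation offspring of day 150 were also set against each other. Of the members 1 was lower after HP pregnancy and 0 were higher, against 0.445% of all genes lower, and the median was -0.37. That gene was Lss, with 569.5, 468.2 and 443.1 after HP pregnancy and 1674, 759.3 and 1351 after HP lactation. The groups did not overlap, and the HP lactation mean was 2.44 times the other (log2 change -1.29, SE 0.28, adjusted p = 0.044). The call was lost without the 2 arrays with Xist signal (-1.05, adjusted p = 0.194) and with the compared arrays alone (adjusted p = 0.142). It passed in 1 of 6 fits without 1 array, the one without HP lactation day 150 replicate 5, where the change was -1.62 (adjusted p = 0.023) and 4 members were called, Lss, Fdps, Dhcr7 and Rdh11. In 8 members, Fdps, Fdft1, Sqle, Lss, Msmo1, Ebp, Dhcr7 and Scap, all HP pregnancy arrays lay below all HP lactation arrays, against 10.8% of all genes. Scap differed by -0.46 (SE 0.12, adjusted p = 0.074), Fdps by -0.97 (SE 0.26, adjusted p = 0.075) and Dhcr7 by -0.91 (SE 0.26, adjusted p = 0.090).

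In the day 150 livers of HP lactation offspring the members lay on both sides of control. Of 27 members 0 passed in limma and 1, Insig2, had an unadjusted p under 0.05, while 0.00908% of all genes passed. The median change was -0.07, within -0.37 to 0.70. The upper end is Mvk, which was at -0.34 without control day 150 replicate 2. Fdps had signals of 6010.1, 4011 and 5353, overlapping control, and a change of -0.04 (95% interval -0.58 to 0.50). Ebp was at -0.13 (-0.38 to 0.12) and Lss at 0.35 (-0.24 to 0.95). Replicate 5 lay under the other arrays of this group: 17 of 19 enzymes were below their group mean there, with a median of -0.36, and without it the members' median change was 0.10. These intervals leave room for changes in either direction.

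At day 21, the end of lactation, the HP lactation livers lay on the other side. Here 24 of 27 members lay above 0, the median change was 0.34, and it was 0.54 over the 19 enzymes. No member passed in limma, while 11 had an unadjusted p under 0.05 and 0.172% of all genes passed. In 8 members, Idi1, Sqle, Lss, Cyp51, Nsdhl, Hsd17b7, Srebf2 and Rdh11, all HP lactation arrays lay above all control arrays, against 7.43% of all genes, and in 0 did they lie below, against 8.71%.

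Sqle, which catalyses an oxygen-dependent, rate-controlling step, had 1340, 1474 and 750.1 in control at day 21 and 2431, 2248 and 2532 after HP lactation. The HP lactation arrays were close together and all above control (log2 change 1.07, SE 0.34, adjusted p = 0.180). Idi1 had 7460, 6803 and 3837 in control and 10576, 11780.0 and 8958 after HP lactation (0.84, SE 0.24, adjusted p = 0.148). Lss had 1183, 1349 and 700.6 in control and 2125, 1699 and 2122 (0.93, SE 0.28, adjusted p = 0.173). In all 3 genes control replicate 3 was the lowest array. Cyp51 was at 0.64 (SE 0.19, adjusted p = 0.161), Nsdhl at 0.74 (SE 0.26, adjusted p = 0.222), Hsd17b7 at 0.54 (SE 0.17, adjusted p = 0.191) and Dhcr7 at 0.69 (SE 0.26, adjusted p = 0.266).

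The day 21 shift was uneven along the route. Hmgcs1 was at 0.01 (95% interval -0.43 to 0.44), Tm7sf2 at 0.12, Sc5d at 0.09 and Ebp at -0.25 (SE 0.12, adjusted p = 0.349). Srebf2 had 365.4, 299.2 and 287.6 in control and 458.3, 370.8 and 374.9 after HP lactation, just without overlap (0.34, SE 0.20, adjusted p = 0.453). Insig2, which retains SCAP in the endoplasmic reticulum, had 17374, 16737 and 14619 in control and 15750.1, 10737 and 10789 (-0.41, SE 0.15, adjusted p = 0.250). Insig1 was at 0.01, Scap at 0.03, Mylip at 0.07 and Npc1 at 0.34 (SE 0.15, adjusted p = 0.307). Without control replicate 3 the members' median was 0.29, with 17 of 27 above 0.

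Summed marker signals of 4 other lists also differed without overlap between these groups at day 21. For 8 hepatocyte markers the sum ran from 176459 to 230256 after HP lactation and from 236670 to 249882 in control, and for 8 endothelial markers from 10736 to 11683 against 12259 to 13902. For erythroid markers it ran from 2202 to 2461 against 1501 to 1858, and for lymphocyte markers from 780.7 to 835 against 599.3 to 753.1. Of 5 erythroid markers with a probe set 3 lay above the filter. Tfrc was the brightest, with a mean signal of 1430, and Hemgn the dimmest at 5.91. Of 7 lymphocyte markers with a probe set 2 lay above the filter, and the brightest was Ptprc at 840.3 and the dimmest Cd79a at 13.1. The hepatocyte and endothelial sums were thus lower and the erythroid and lymphocyte sums higher in the livers whose cholesterol genes lay above control. Macrophage, stellate cell, bile duct and pancreas sums overlapped. The mean Gapdh 3'/5' ratio was 0.843 after HP lactation and 0.942 in control, and the members' median was 0.23 with it as a covariate. The part of these markers and of the ratio in the day 21 values was not tested.

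After HP feeding in pregnancy, the members at day 21 were spread about evenly around control. Of 27 members 0 passed in limma, 0 had an unadjusted p under 0.05, and 0% of all genes passed. The median change was 0.00, with 14 of 27 above 0 and a range of -0.24 to 0.44. That split depended on single arrays. Above 0 were 22 of 27 without HP pregnancy day 21 replicate 1 and 6 of 27 without replicate 3. Over the leave-outs the median ran from -0.15 to 0.12. Fdps was at -0.03 (95% interval -0.57 to 0.51), Lss at 0.03 (-0.56 to 0.63) and Ebp at -0.08 (-0.33 to 0.17). Cyp51, at 0.37 (-0.04 to 0.77), and Idi1, at 0.44 (-0.06 to 0.93), were the furthest above. Sqle had 762.3, 1678 and 2354 in the 3 HP pregnancy pools, of which the lowest lay within the range of control and the others above it. Set against HP lactation at day 21, 0 members passed in limma, 7 had an unadjusted p under 0.05, and 1.28% of all genes passed. In 8 of 27 members, Idi1, Fdft1, Lss, Nsdhl, Hsd17b7, Dhcr7, Srebf2 and Npc1, all HP pregnancy arrays lay below all HP lactation arrays, against 8.7% of all genes, and the median was -0.30.

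Whether a diet response changed between the days was tested directly. For HP pregnancy the members' median difference of responses was -0.42, 0 passed in limma and 5 had an unadjusted p under 0.05, while 0.0182% of all genes passed. Rdh11 had the largest, at -1.07 (SE 0.33, adjusted p = 0.999), followed by Mvd at -1.05 (SE 0.64) and Fdps at -0.99 (SE 0.36). For HP lactation the median was -0.40, 0 passed, 4 had an unadjusted p under 0.05, and again 0.0182% of all genes passed. Idi1 stood at -0.92 (SE 0.33, adjusted p = 0.929) and Nsdhl at -0.91 (SE 0.37, adjusted p = 0.929). No single member's response to either diet was thus shown to differ between the days.

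The days were also compared within each diet. The Gapdh 3'/5' ratio differed with age: its group means ran from 0.843 to 0.942 at day 21 and from 1.48 to 1.75 at day 150. The members' median change from day 21 to day 150 was 0.23 in control, -0.24 in HP pregnancy and -0.32 in HP lactation. With the ratio as a covariate 0 members passed in any of the 3 age comparisons. Of all 11018 genes, 33 rose and 19 fell in control with it, 2 and 0 in HP pregnancy, 15 and 2 in HP lactation. The members' medians were then 0.447, 0.125 and 0.245, so their sign turned in both HP diets. Marker sums of stellate cells, lymphocytes and pancreas also differed between the days without overlap in each diet. For 8 stellate cell markers in control the sum ran from 21878 to 30612 at day 21 against 11960 to 19440 at day 150. Of 5 pancreas markers with a probe set 2 lay above the filter. Cela1 was the brightest, with a mean signal of 3818, and Cpa1 the dimmest at 5.14, so the pancreas sum rests on few genes. The part of the ratio and of these markers in the age differences was not tested.

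In control offspring 3 rose from day 21 to day 150 (9.7% of all genes rose) and 3 fell (8.08% fell). These are 11.1% of the members in each direction, near the shares of all genes. Tm7sf2 rose, with 5383, 5182 and 3900.4 at day 21 and 7949, 8609 and 9218 at day 150 (log2 change 0.85, SE 0.17, adjusted p = 0.0022). Sqle rose by 1.09 (SE 0.34, adjusted p = 0.031) and Ebp by 0.36 (SE 0.12, adjusted p = 0.044). Scap fell, with 5216, 5394 and 4209 at day 21 and 3446, 3703 and 3374 at day 150 (-0.49, SE 0.12, adjusted p = 0.0099). The groups of Tm7sf2 and of Scap did not overlap. Mylip and Npc1 also fell, Mylip by 0.77 (SE 0.24, adjusted p = 0.030) and Npc1 by 0.45 (SE 0.15, adjusted p = 0.041). Without control day 21 replicate 3, Tm7sf2 and Scap were the 2 members that passed, and Sqle was at 0.79.

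In HP pregnancy offspring 1 member rose with age (12.1% of all genes rose) and 7 fell (11.5% fell), which are 3.7% and 25.9% of the members. The one that rose was Lbr, at 0.63 (SE 0.20, adjusted p = 0.028). Fdps fell, with 4769, 5152 and 8158 at day 21 and 2967, 2197 and 2625 at day 150 (-1.18, SE 0.26, adjusted p = 0.0029). Lss fell by 1.11 (SE 0.28, adjusted p = 0.0085), Hmgcs1 by 0.66 (SE 0.21, adjusted p = 0.026), Fdft1 by 0.65 (SE 0.22, adjusted p = 0.036) and Srebf2 by 0.59 (SE 0.20, adjusted p = 0.039). Scap fell by 0.79 (SE 0.12, adjusted p = 0.00015) and Npc1 by 0.52 (SE 0.15, adjusted p = 0.014). Without HP pregnancy day 21 replicate 3, 3 members passed, of which Fdps and Scap fell and Tm7sf2 rose.

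In HP lactation offspring 2 rose (14.1% of all genes rose), Tm7sf2 by 0.65 (SE 0.17, adjusted p = 0.0084) and Ebp by 0.48 (SE 0.12, adjusted p = 0.0065), and 4 fell (11.6% fell), which are 7.41% and 14.8% of the members. Those that fell were Fdps, by 0.86 (SE 0.26, adjusted p = 0.019), Srebf2, by 0.59 (SE 0.20, adjusted p = 0.038), Scap, by 0.39 (SE 0.12, adjusted p = 0.023), and Npc1, by 0.53 (SE 0.15, adjusted p = 0.012). Without HP lactation day 21 replicate 1, 2 members passed, Ebp and Tm7sf2, and without HP lactation day 150 replicate 5, 3 did. Scap and Npc1 were lower at day 150 in all 3 diets.

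**Figure D3:**
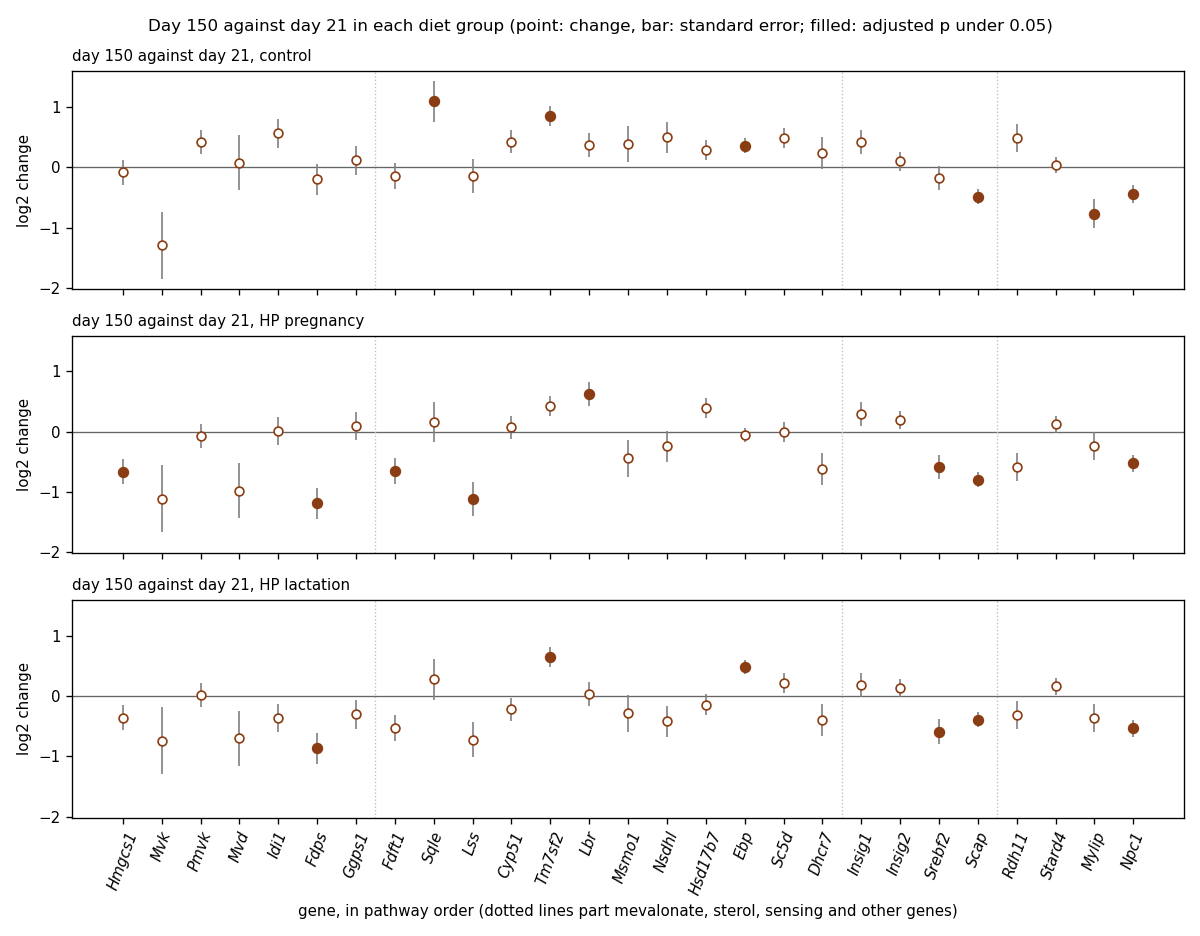
Log2 change of signal from day 21 to day 150 (vertical axis) for 27 genes in pathway order (horizontal axis) in each diet group; points are changes, bars standard errors, 3 arrays per group, and filled points have an adjusted p under 0.05. Scap and Npc1 have filled points below 0 in all 3 panels, Fdps in both HP panels, and Tm7sf2 above 0 in the control and HP lactation panels.

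The enzymes covaried from pool to pool within a group. Each gene's log2 signal was taken as a deviation from its group mean, over 18 arrays, which share the pool, labelling and scaling within each array. The mean correlation between pairs of the 19 enzymes was 0.520, against 0.0032 between all genes, 0.353 within a list of 19 fatty acid synthesis genes and 0.732 within 8 hepatocyte markers. It was 0.577 within the squalene and sterol enzymes and 0.441 within the mevalonate enzymes. Lss followed the mean of the other enzymes most closely (r = 0.956), then Nsdhl (0.927), Fdft1 (0.925) and Cyp51 (0.901). Rdh11 (0.872), Srebf2 (0.720) and Insig1 (0.708) also followed them. Ggps1 (-0.049) and Lbr (0.003) did not, and Mylip (-0.597) and Npc1 (-0.329) ran the other way. In control day 21 replicate 3, 18 of 19 enzymes were below their group mean, with a median of -0.44, and in HP pregnancy day 21 replicate 3, 18 of 19 were above it, with a median of 0.25. Against the control mean of the same day, the enzyme medians of the 3 HP pregnancy pools of day 150 were -0.46, -0.52 and -0.50, and those of the HP lactation pools of day 21 were 0.65, 0.36 and 0.32. The single control pools of day 150 lay at 0.28, -0.26 and 0.04, so the 3 HP pregnancy pools lay below all of them.

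**Figure D4:**
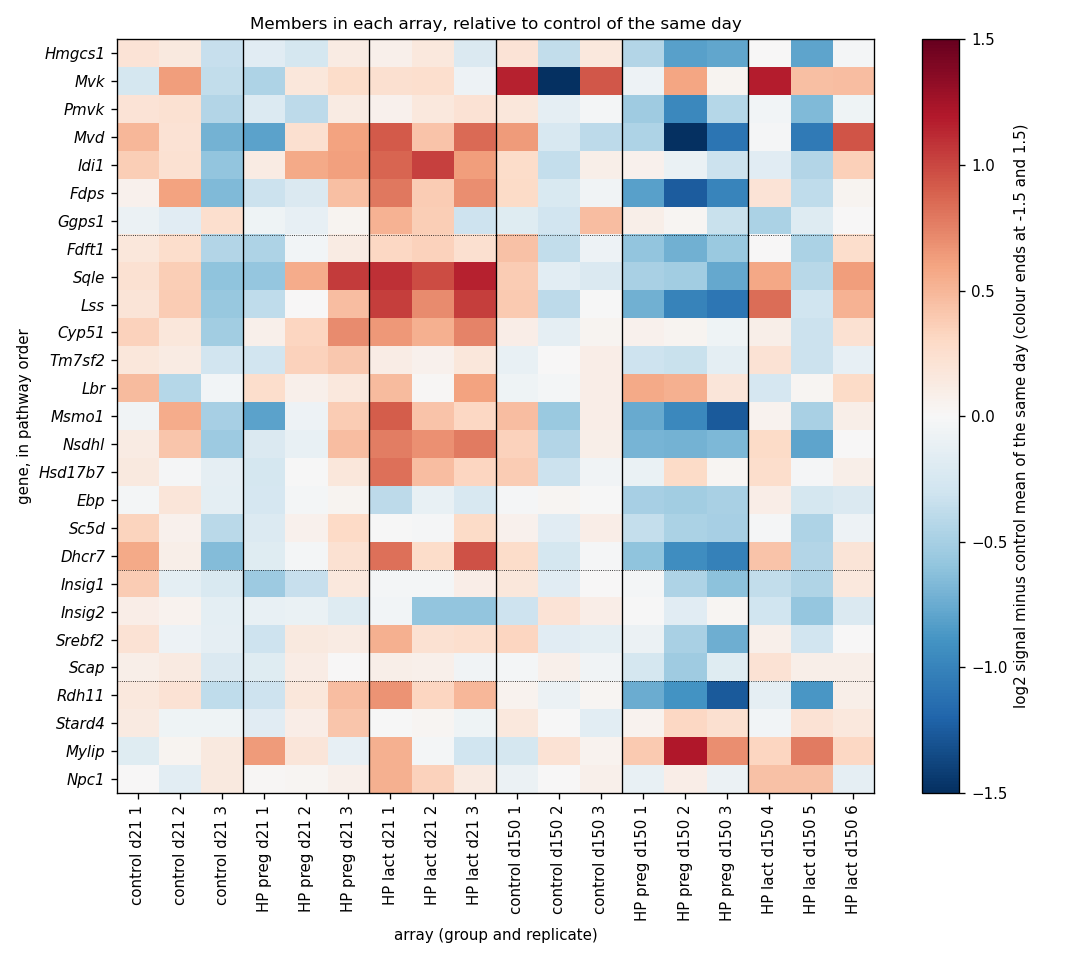
Log2 signal minus the control mean of the same day (colour, ending at -1.5 and 1.5) for 27 genes in pathway order (rows) in each of the 18 arrays (columns, by group and replicate). Whole columns shade together, as in control day 21 replicate 3, and the HP pregnancy columns of day 150 are blue for most enzymes, with enzyme medians of -0.46, -0.52 and -0.50.

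**Figure D5:**
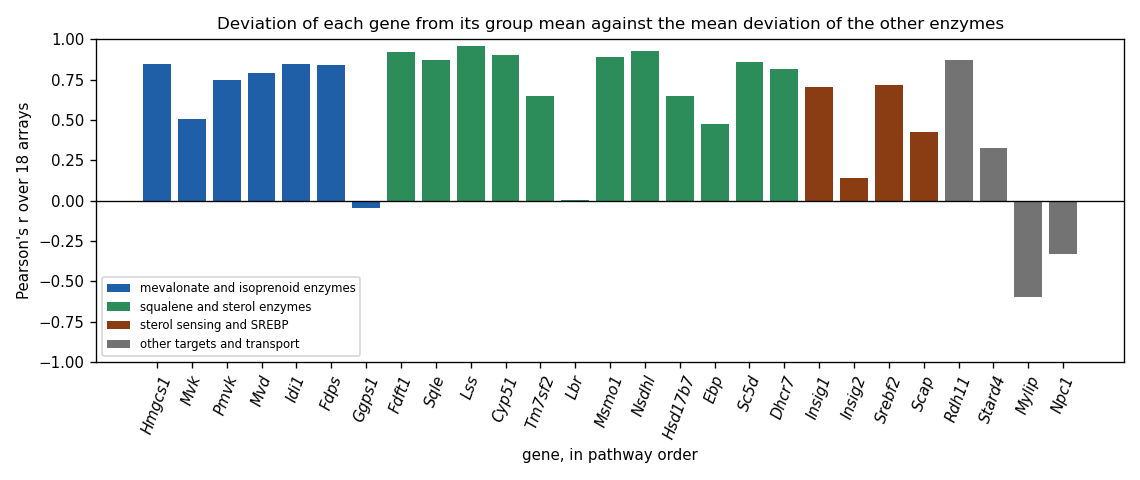
Pearson's r over 18 arrays (vertical axis) between each gene's deviation from its group mean and the mean deviation of the other enzymes, for 27 genes in pathway order (horizontal axis), coloured by role. Lss is highest at 0.956, Ggps1 and Lbr lie near 0, and Mylip is lowest at -0.597.

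Genes around the route were counted from lists of known function. The genes that process SREBP or degrade sterol-regulated proteins (12 tested) had 0 past the threshold in either HP comparison with control at day 150 or 21, and a median of 0.13 after HP pregnancy at day 150. Erlin2 and Erlin1, which take part in that degradation, were at 0.53 (adjusted p = 0.057) and 0.43 (adjusted p = 0.082) there. Of 10 genes of the isoprenoid branches 1 fell after HP pregnancy at day 150, Coq2, which attaches the side chain of coenzyme Q (-0.51, SE 0.13, adjusted p = 0.045), and the list's median was -0.09. Of 14 genes of sterol storage, uptake and oxidation 0 passed against control. After HP pregnancy at day 150 Cyp27a1, a sterol hydroxylase of bile acid synthesis, was at -0.51 (adjusted p = 0.063). Scarb1, the HDL receptor, was at -0.45 there (adjusted p = 0.067). The 19 genes of acetyl-CoA supply and fatty acid synthesis, which SREBP1 drives, had 0 past the threshold against control. Their medians were -0.35 after HP pregnancy at day 150, with 17 of 19 below 0, and 0.20 after HP lactation at day 21.

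Clock genes, markers of feeding and markers of other cell types were measured on the same arrays. The clock genes with their known maximum around dusk (8 tested) had a median change of 1.03 after HP lactation at day 21, with 8 of 8 above 0, and 0.86 after HP pregnancy and 0.82 after HP lactation at day 150, against -0.08 after HP pregnancy at day 21. One of them rose (1 of 8), Nr1d2, by 0.98 after HP pregnancy at day 150 (SE 0.21, adjusted p = 0.029), and 5 antiphase genes had medians of -0.23, -0.93, -0.95 and 0.17 in the same order. The 19 enzymes had medians of 0.54, -0.59, -0.07 and 0.00 in that order. Fasting genes (14 tested) had medians of -0.20 after HP pregnancy at day 150 and 0.10 after HP lactation at day 21. At day 150 the summed signal of 8 endothelial markers ran from 14894 to 18615 over the HP pregnancy arrays. Over control it ran from 11917 to 15137, so these ranges overlapped. For lymphocyte markers (7 of 8 with a probe set, 2 above the filter, Cd79a dimmest at 13.1) it ran from 1626 to 1753 against 1187 to 1594. For erythroid markers (5 of 6, 3 above the filter, Hemgn dimmest at 5.91) it ran from 2739 to 2935 against 1400 to 2211. Hepatocyte markers overlapped, with 207278 to 255512 against 220581 to 279519, and so did 10 macrophage markers, with 22774 to 25080 against 19300.3 to 26042. The endothelial and lymphocyte sums of the HP pregnancy arrays lay above those of HP lactation at day 150, which ran from 11725 to 14761 and from 1083 to 1504. The part of the clock, the feeding state and these cell types in the cholesterol genes' values was not tested.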

How the data were processed

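Liver RNA pools were hybridised to 18 Affymetrix Mouse Genome 430 2.0 arrays. The values are signal intensities on a linear scale, deposited by the authors and made with MAS5 in GCOS 1.4 per the submitters' processing notes. The 2% trimmed mean lay between 498.5 and 499.9 on each array. The arrays hold 45101 probe sets, including 64 controls. A single gene symbol is given for 34958, several for 932 and none for 9211. Of the first, 34754 were matched to RefSeq by gene ID. No gene coordinates are given except those of promoter windows, credited to RefSeq on GRCm38.p6.

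Signals were put on the log2 scale with a pseudocount of 0. The filter dropped probe sets whose mean fell under the median of the non-control sets, 5.85 on that scale or a signal of 57.5. The brightest remaining probe set stood for its gene, giving 11018 genes. Group means were fitted over all 18 arrays with limma 3.58.1 (R 4.3.3) and moderated with eBayes with trend, with Benjamini-Hochberg adjustment over all genes in each of 11 comparisons, two-sided, threshold 0.05. There were 12 residual and 6.47 prior degrees of freedom. Only 3 arrays per group limit the precision, and the median SE of a difference of 2 groups was 0.189. Lists are described by counts and medians, with no list test.

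The members and lists were chosen with earlier results of these data known. All members could be named. From the other lists, those past the threshold could be named, or up to 2 with the smallest p per list and comparison. Alternatives changed the arrays (each left out in turn, both Xist arrays left out, the compared arrays alone, array weights), the model (no trend, a replicate block, the Gapdh 3'/5' ratio as a covariate), the scaling (quantile, or equal 75th percentiles), the pseudocount (50), the filter (none, or the 70th percentile), the probe sets (all kept ones) and the threshold (0.10). The code was tested on simulated data. Figures used matplotlib 3.10.9 under Python 3.11.15.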

Additional observations from a re-analysis of the deposited data

How the results depend on the processing

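The direction of the members' median held in the HP pregnancy against control comparison at day 150 under all alternatives run (leave-outs -0.52 to -0.34) and in the HP lactation against control comparison at day 21 (leave-outs 0.24 to 0.39). The count of 3 members at day 150 after HP pregnancy did not hold. It was 1 without a filter or with equal 75th percentiles (Rdh11 each time), 0 without trend or with the Gapdh ratio, 10 with array weights, 9 with the compared arrays alone and 9 at an adjusted p under 0.10, with leave-outs from 0 to 1. The single member of HP pregnancy against HP lactation at day 150 was lost (0) without a filter, with equal 75th percentiles, without trend, with array weights, with the compared arrays alone, without the Xist arrays and with the Gapdh ratio, and became 4 at 0.10, with leave-outs from 0 to 4. Over all genes 49 fell as reported, 27 without a filter, 25 with equal 75th percentiles, 11 without trend and 64 with array weights. The count was 1 with the compared arrays alone, 3 without the Xist arrays, 18 with the Gapdh ratio and 193 at 0.10. In control, age called 6 members, 2 without trend and 0 with the Gapdh ratio (leave-outs 2 to 6, median 0.447 with the ratio). Over all genes 1069 rose and 890 fell, 964 and 806 without trend, and 33 and 19 with the ratio. In HP pregnancy age called 8 of 27 and 0 with the ratio, with leave-outs from 3 to 10. The median was 0.125 with the ratio, where Srebf2 at 0.0458 and Fdft1 at 0.151 reversed. Over all genes 2 rose and 0 fell with the ratio. Of the members' 54 kept probe sets 15 were called (27.8%), of which 2 rose and 13 fell. Of all 19349 kept probe sets 1880 rose and 2291 fell. In HP lactation age called 6 of 27, 2 with the compared arrays alone and 0 with the ratio, with leave-outs from 2 to 7. The median was 0.245 with the ratio, where Srebf2 reversed at 0.0790, and -0.40 to -0.10 over leave-outs. Over all genes 943 rose and 787 fell with the compared arrays alone, and 15 and 2 with the ratio. Of the members' 54 kept probe sets 15 were called (27.8%), of which 3 rose and 12 fell. Of all 19349 kept probe sets 2165 rose and 2318 fell. The median difference of responses between days was -0.634 for HP pregnancy with array weights and -0.175 for HP lactation with the Gapdh ratio. The median of the fatty acid list after HP lactation at day 21 ran from -0.09 to 0.38 over leave-outs. The Gapdh ratio separates the days, so its part and that of age cannot be told apart here. The cause of these changes was not tested.

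The replicate numbers are not stated to pair the pools. Deviations of same-numbered arrays had a median correlation of -0.02 over 30 pairs, with 1 over 0.1. For arrays of different number it was 0.01 over 60 pairs, with 7 over 0.1. These values cannot settle whether the pools were paired. HP lactation day 150 shares no numbers with the other groups, so its comparisons had no such fit. With the replicate block, HP pregnancy at day 150 called 2 members, Ebp and Rdh11, and Fdps missed (adjusted p = 0.065). Of all 11018 genes 105 rose and 69 fell there. The other comparisons kept their counts of members.

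With 3 pools per group, the error of most members' changes is wide enough to hide small differences.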
